A study of Urocitellus parryii with 44 samples.

Results

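Genes that bring fatty acids into brown fat cells and prepare them for oxidation were examined in arctic ground squirrels (Urocitellus parryii) in winter torpor and in summer. The rule took every probe of 4 mouse cDNA membranes (MA07, MA08, MA10 and MA11) that carried 1 of 10 gene symbols alone. It found 17 of 38400 probes, from 14 cDNA clones, for 7 of the 11626 genes that had a single-symbol probe: Lpl, Cd36, Fabp3, Fabp5, Acsl5, Cpt1a and Cpt2. The other 3 symbols of the rule, Slc27a1, Acsl1 and Cpt1b, matched no single-symbol probe and were not analysed here. Each of the 17 probes could be tested, since none had fewer than 2 measured animals per group.

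The winter torpor group held 5 hibernating animals and the summer group held 3 active animals sampled in August; age, sex and strain were not given in the sources used here. Season and activity state changed together, so they cannot be told apart. Total RNA of each animal's brown adipose tissue was labelled with radioactive phosphorus and hybridised to each membrane, and the RNA of torpid animal 5 and of summer animals 1 and 2 was split and measured as first and second aliquots. Intensities below are multiples of the median of their own membrane column, so a value describes 1 probe across animals, and its height is not read as more or less RNA than at another probe. Since the probes are of mouse and the RNA is of squirrel, a symbol names the mouse gene, and all 7 symbols also occur in the RefSeq annotation of the squirrel.

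Brown adipose tissue burns fatty acids to make heat. Lipoprotein lipase, the product of Lpl, frees fatty acids from circulating triacylglycerol at the capillary wall, the membrane protein Cd36 helps them into the cell, and small cytosolic fatty acid binding proteins carry them. Acyl-CoA synthetases then activate them to acyl-CoA, and the carnitine palmitoyltransferases Cpt1 and Cpt2 move the acyl groups through the mitochondrial membranes to β-oxidation.

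Most of these probes stood higher in torpor, yet none passed the test over all probes. The difference, torpor minus summer on the log2 scale, was above 0 for 13 of the 17 probes, as for 50% of all 37848 tested probes. Its median was 0.28 over the 17 probes and 6.5e-05 over all tested probes. By limma with Benjamini-Hochberg adjustment, 0 of the 17 passed an adjusted p of 0.05, against 0.309% of all tested probes. At an unadjusted p under 0.05, 3 of the 17 were higher in torpor, against 6.39% of all tested probes, and 0 were lower, against 5.18%. These 3 were probes of Fabp3, Acsl5 and Cpt2. Every torpid animal lay above every summer animal for 2 of the 17 probes (1 of Cd36 and 1 of Cpt2), against 4.37% of all tested probes, and below every summer animal for 0 of the 17, against 4.13%. In either direction these are 2 of the 17, against 8.5% of all tested probes. In whole tissue, fewer cells of a type and less RNA per cell cannot be told apart.

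**Figure D1:**
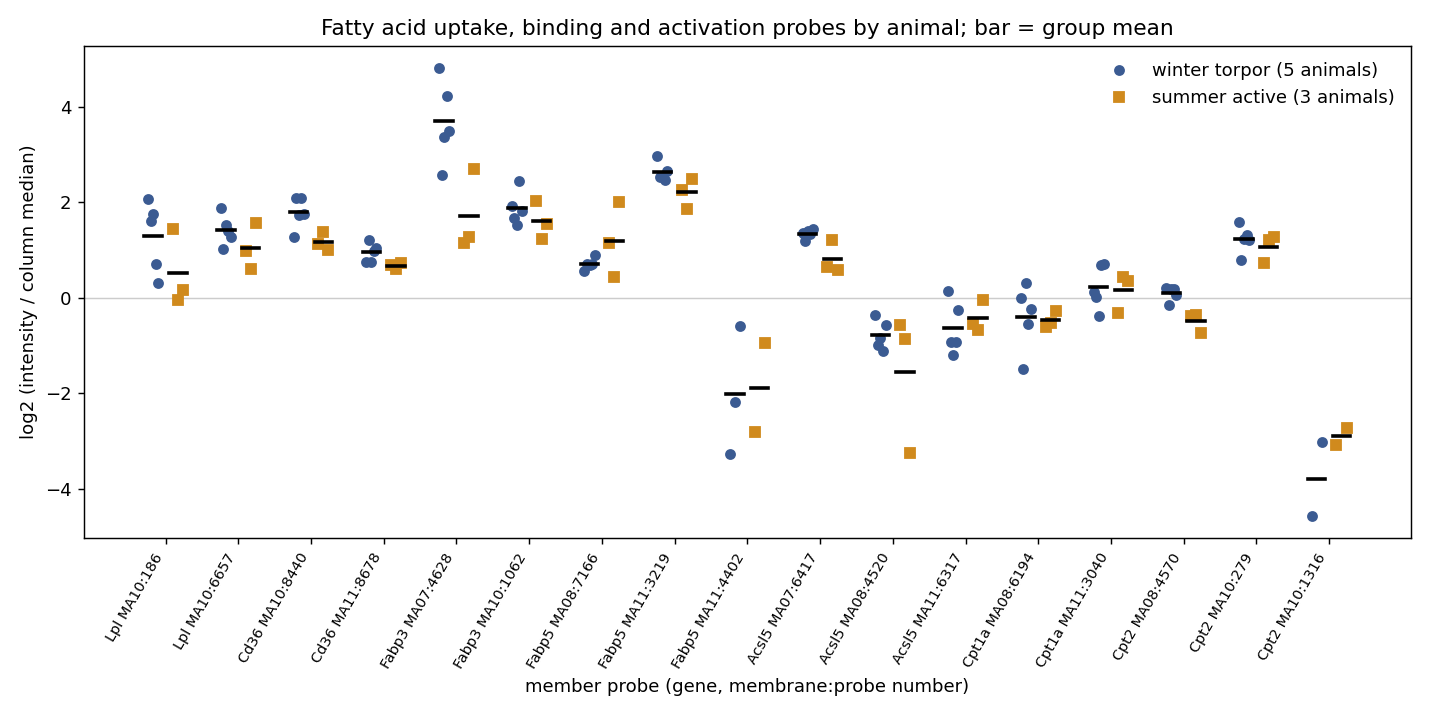
Log2 intensity over the column median (vertical axis) of the 17 member probes (horizontal axis), with torpid animals as blue circles left of summer animals as orange squares and group means as black bars. The Fabp3 probe on MA07 has the widest gap between group means, at 3.70 in torpor and 1.71 in summer, and 2 dim probes lack some animals.

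Lpl was represented by a pair of clones, both on MA10, and neither separated the groups. Probe 186 gave 4.22, 3.05, 3.40, 1.63 and 1.24 times the column median in torpid animals 1 to 5, against 2.71, 0.973 and 1.13 in summer animals 1 to 3. Torpid animals 1 to 3 lay above all summer animals, and torpid animals 4 and 5 lay below summer animal 1. The probe was 1.70-fold higher in torpor, a log2 difference of 0.77 ± 0.48 (SE; limma adjusted p = 0.56). The difference was 0.48 without summer animal 2 (adjusted p = 0.77) and 1.22 without summer animal 1 (adjusted p = 0.31). Probe 6657 gave 3.71, 2.02, 2.90, 2.64 and 2.43 in torpid animals 1 to 5, against 1.97, 1.52 and 2.97 in summer animals. Here summer animal 3 was above all torpid animals but the first, and the difference was 0.38 ± 0.38 (SE; limma adjusted p = 0.74). In summer animal 1 the first aliquot of this probe gave 0.931 and the second 4.17, a wider gap than between the groups. The difference was 0.15 without summer animal 2 and 0.64 without summer animal 3.

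Cd36, the fatty acid translocase of the plasma membrane, had 1 clone spotted on both MA10 and MA11. On MA11 it gave 1.68, 2.32, 1.69, 1.98 and 2.07 in torpid animals, against 1.60, 1.52 and 1.65 in summer animals. All torpid animals were above all summer animals, although the lowest torpid value, 1.68, was close to the highest summer value, 1.65. This amounted to a 1.22-fold higher mean, or 0.28 ± 0.22 (SE; limma adjusted p = 0.65). On MA10 the values were 2.42, 4.24, 3.32, 4.26 and 3.39 in torpid animals and 2.19, 2.61 and 1.99 in summer animals. Only torpid animal 1 fell within the summer range, and the mean was 1.54-fold higher, or 0.62 ± 0.37 (SE; limma adjusted p = 0.54). The lowest torpid animal was thus animal 1 on both membranes. The 95% intervals ran from -0.19 to 0.76 on MA11 and from -0.15 to 1.40 on MA10.

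Fabp3, the fatty acid binding protein first described in heart and muscle and also made in brown fat of rodents, gave the smallest p of the 17 probes. Its MA07 probe (4628) read 28.0, 5.96, 10.4, 18.9 and 11.2 in torpid animals 1 to 5, against 2.23, 2.41 and 6.52 in summer animals 1 to 3. Summer animal 3 lay just above torpid animal 2, and otherwise the groups were apart. The means were 3.70 ± 0.86 (SD, n = 5) in torpor and 1.71 ± 0.87 (SD, n = 3) in summer in log2 units, a 3.97-fold higher level in torpor. The difference was 1.99 ± 0.50 (SE; limma unadjusted p = 0.0026, adjusted p = 0.17), with a 95% interval from 0.87 to 3.10. This probe ranked 584 by p among the 37848 tested probes. Both aliquots of the split RNAs kept the order: torpid animal 5 gave 13.2 and 9.52, summer animal 1 gave 1.67 and 2.96, and summer animal 2 gave 3.14 and 1.84.

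The other Fabp3 clone, probe 1062 on MA10, showed no such gap. It read 3.81, 3.17, 2.88, 5.48 and 3.51 in torpid animals, against 4.07, 2.35 and 2.91 in summer animals. The groups overlapped, since summer animal 1 exceeded all torpid animals except animal 4. The difference was 0.28 ± 0.38 (SE; limma adjusted p = 0.82), with a 95% interval from -0.52 to 1.08. It was 0.10 without summer animal 2, 0.13 without torpid animal 4, 0.49 without summer animal 1 and 0.07 with first aliquots alone. To set the probes against each other, the log2 ratio of the MA07 over the MA10 value was taken in each animal, a comparison chosen after the values were seen. It averaged 1.82 ± 0.70 (SD, n = 5) in torpor, ranging from 0.91 to 2.88, and 0.11 ± 1.02 (SD, n = 3) in summer, ranging from -0.87 to 1.17. This gap of 1.71 between the groups gave p = 0.071 in a two-sided exact permutation test over the 56 arrangements of the animals, where 0.036 is the smallest p that can occur. In summer animal 1 the MA10 probe gave 7.26 in the first aliquot and 2.28 in the second.

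Fabp5, the fatty acid binding protein known from skin and also found in fat cells and macrophages, had 3 probes of 2 clones. The brightest, probe 3219 on MA11, gave 7.80, 5.76, 5.89, 5.53 and 6.28 in torpid animals, against 4.80, 3.65 and 5.60 in summer animals. Only summer animal 3 reached into the torpid range, and the difference was 0.43 ± 0.24 (SE; limma adjusted p = 0.52). With cyclic loess scaling between columns this difference was -0.07. The second clone pointed the other way on MA08, where it gave 1.48, 1.65, 1.61, 1.64 and 1.86 in torpid animals, against 2.21, 1.35 and 4.02 in summer animals. Torpid animals were close together and the summer animals lay on both sides of them, for a difference of -0.48 ± 0.30 (SE; limma adjusted p = 0.58). Without summer animal 3 that difference was -0.07, and without summer animal 2 it was -0.86 (adjusted p = 0.17). On MA11 the same clone had values in torpid animals 3 to 5 (0.104, 0.222 and 0.665) and in summer animals 1 and 2 (0.142 and 0.520). That spot was at signal percentile 3.98 of its membrane, where the MA08 spot of the clone was at 80.8, and its difference of -0.13 ± 0.75 (SE; limma adjusted p = 0.97) had a 95% interval from -1.82 to 1.57.

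Acsl5 encodes a long-chain acyl-CoA synthetase that activates fatty acids, and its 3 clones differed in sign. On MA07 it gave 2.57, 2.29, 2.64, 2.52 and 2.70 in torpid animals, against 1.57, 2.32 and 1.50 in summer animals. The torpid animals lay within a narrow range, and summer animal 2 just exceeded torpid animal 2. The mean was 1.44-fold higher in torpor, at 0.53 ± 0.19 (SE; limma unadjusted p = 0.019, adjusted p = 0.32). That unadjusted p was 0.071 without summer animal 1 and 0.076 without summer animal 3. On MA08 the values were 0.778, 0.501, 0.562, 0.459 and 0.675 in torpid animals, against 0.672, 0.552 and 0.106 in summer animals. Only summer animal 3 stood apart there: the difference was 0.78 ± 0.50 (SE; limma adjusted p = 0.58), -0.06 without that animal and 0.08 with values floored at the 10th percentile of each column. On MA11 the values were 1.11, 0.527, 0.434, 0.526 and 0.837 in torpid animals and 0.682, 0.625 and 0.975 in summer animals, with a difference of -0.21 ± 0.32 (SE; limma adjusted p = 0.84).

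Cpt1a, the liver-type carnitine palmitoyltransferase of the outer mitochondrial membrane and the regulated entry step of β-oxidation, had 1 clone on MA08 and MA11. On MA08 it read 0.993, 0.355, 1.25, 0.687 and 0.849 in torpid animals, against 0.656, 0.690 and 0.828 in summer animals, so that torpid animals lay on both sides of the summer range. The difference was 0.08 ± 0.35 (SE; limma adjusted p = 0.95), with a 95% interval from -0.69 to 0.85. On MA11 it read 1.08, 1.02, 0.765, 1.60 and 1.64 in torpid animals and 0.807, 1.35 and 1.28 in summer animals, a difference of 0.07 ± 0.30 (SE; limma adjusted p = 0.96) with an interval from -0.60 to 0.73. Both intervals reach well to either side of 0, so they do not show that the level was the same.

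Cpt2, the inner-membrane transferase that returns acyl groups to CoA, had 3 clones. On MA08 (probe 4570) it gave 1.15, 0.908, 1.14, 1.14 and 1.04 in torpid animals, against 0.770, 0.783 and 0.601 in summer animals. Every torpid animal was above every summer animal, and the mean was 1.50-fold higher, at 0.59 ± 0.20 (SE; limma unadjusted p = 0.012, adjusted p = 0.27). That unadjusted p was 0.053 without summer animal 3. The aliquots of summer animal 1 gave 1.04 and 0.569, so the first of them lay within the torpid range. Probe 279 on MA10 gave 3.02, 1.73, 2.33, 2.49 and 2.33 in torpid animals, against 1.66, 2.33 and 2.40 in summer animals, with overlap and a difference of 0.16 ± 0.37 (SE; limma adjusted p = 0.90). Probe 1316 on MA10 was at signal percentile 2.12, had values in torpid animals 3 and 5 (0.0424 and 0.123) and summer animals 1 and 2 (0.119 and 0.151), and its difference of -0.89 ± 0.62 (SE; limma adjusted p = 0.61) rested on these 4 animals. With the floor, which also fills empty cells, that difference was -0.0017, and with a pseudocount it was -0.22.

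**Figure D2:**
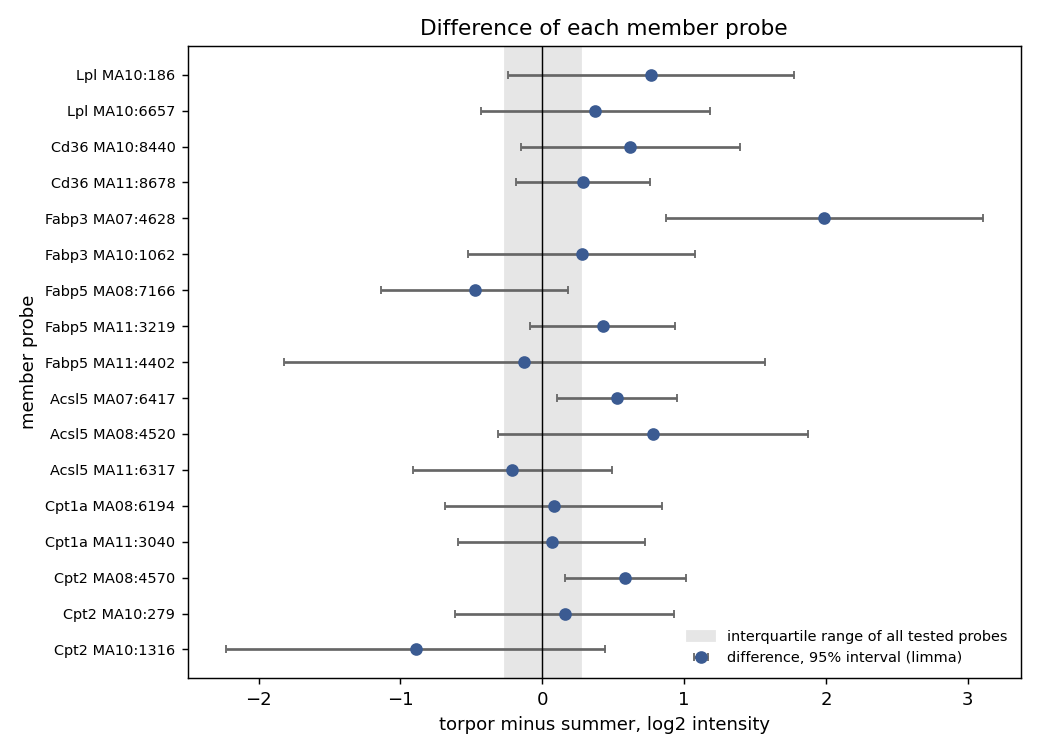
Torpor minus summer difference in log2 intensity (horizontal axis) of each member probe (vertical axis), with 95% intervals from limma and the interquartile range of all tested probes, -0.26 to 0.27, as a grey band. The intervals of 3 probes (Fabp3 on MA07, Acsl5 on MA07 and Cpt2 on MA08) lie above 0, and the other 14 include 0.

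Averaged over the probes of a gene that had values in all 8 animals, Fabp3 had the widest difference, at 2.79 ± 0.55 (SD, n = 5) in torpor and 1.65 ± 0.44 (SD, n = 3) in summer in log2 units, or 1.13. Lpl followed with 0.57, Cd36 with 0.45, and Cpt2 and Acsl5 with 0.37 each. The 2 Fabp3 probes were far apart, at 1.99 and 0.28, and the 3 Acsl5 probes ran from -0.21 to 0.78. The means of Cpt2 and Fabp5 leave out probes 1316 and 4402, which lacked some animals. Cpt1a was at 0.07 and Fabp5 at -0.03, where the opposed probes cancelled. Among animals, torpid animal 1 had the highest value of all 8 for 8 of the 15 probes with complete values, and summer animal 2 had the lowest for 6. The mean deviation from each probe's average was 0.41, -0.09, 0.10, 0.19 and 0.17 in torpid animals 1 to 5, against -0.23, -0.36 and -0.20 in summer animals 1 to 3. Each summer animal was thus below each torpid animal on this average, which is given as a description. No matching counts or averages over all probes are given here, so the order of the animals is not read as particular to these genes. Cd36 and Cpt1a each entered with 2 probes of 1 clone.

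Repeat measurements of the same RNA set the technical error. The absolute log2 difference between first and second aliquots had a median of 0.33 over 45 pairs of member values, against 0.39 over all probes. For 6 of the 15 probes with all aliquots, the size of the group difference exceeded the largest gap between aliquots. These included the Fabp3 probe on MA07 (1.99 against 0.82), Lpl probe 186 (0.77 against 0.72), and Acsl5 on MA07 (0.53 against 0.32) and MA08 (0.78 against 0.48). The others were Fabp5 on MA08 (0.477 against 0.476, narrowly, and lower in torpor) and its probe 3219 on MA11 (0.43 against 0.31). How often this held over all probes is not given here, so whether 6 of 15 is unusual cannot be told. Summer animal 3 was not split, and without it the MA08 differences were -0.07 for Fabp5 and -0.06 for Acsl5. The aliquots therefore do not measure the error of the values behind those MA08 differences. The widest gaps between aliquots, 2.16 for Lpl probe 6657, 1.84 for Cpt2 probe 279 and 1.67 for Fabp3 probe 1062, were all in summer animal 1 on MA10. On that membrane the median gap over all probes was 0.87 in summer animal 1, against 0.32 on MA07.

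**Figure D3:**
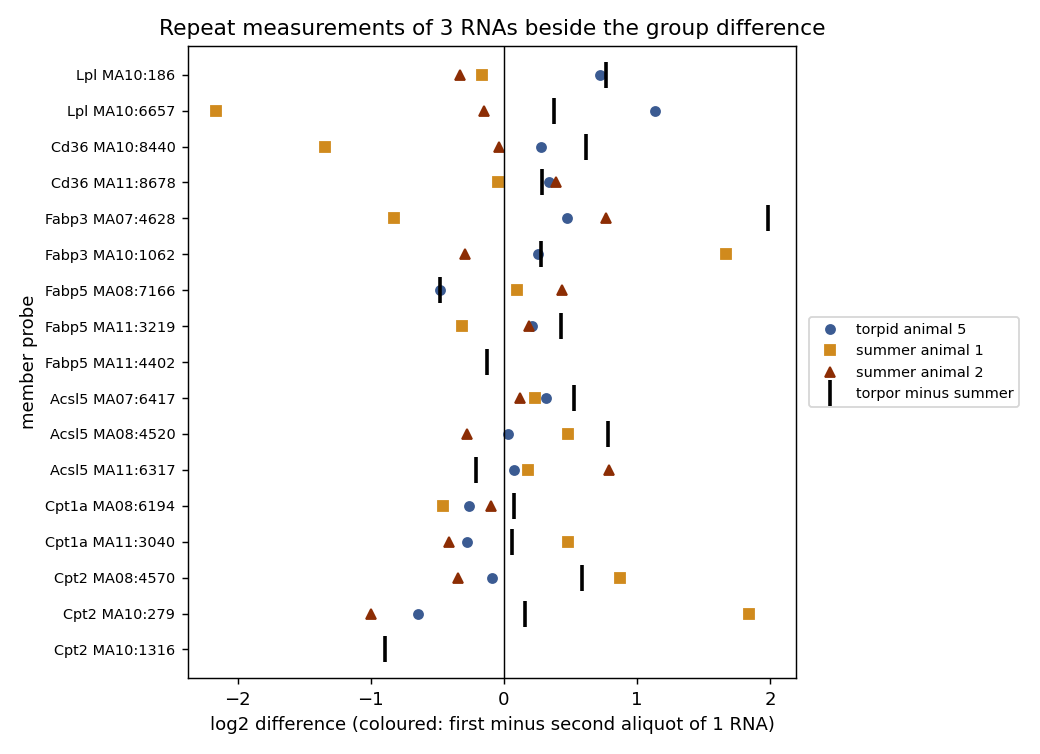
First minus second aliquot of torpid animal 5 (blue circles), summer animal 1 (orange squares) and summer animal 2 (brown triangles), in log2 (horizontal axis), for each member probe (vertical axis), beside the torpor minus summer difference (black ticks). The group difference of the Fabp3 probe on MA07, 1.99, lies outside its aliquot gaps, and that of Lpl probe 6657, 0.38, lies inside them.

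Other genes of fatty acid handling were counted by the brightest probe of each. Of 62 genes in 4 lists, 41 were measured, 27 with positive and 14 with negative differences and a median of 0.12. None passed an adjusted p of 0.05 by this probe; at an unadjusted p under 0.05, 9 of the 41 were higher and 1 was lower in torpor, against 6.39% and 5.18% of all tested probes. Of all 88 probes of these genes 1 passed an adjusted p of 0.05, against 0.309% of all tested probes, and it was not the brightest of its gene: Slc25a20, the carnitine-acylcarnitine carrier that works between Cpt1 and Cpt2, rose on MA11. It stood at 2.99 ± 0.44 (SD, n = 5) in torpor and 1.25 ± 0.20 (SD, n = 3) in summer, a difference of 1.73 ± 0.28 (SE; limma adjusted p = 0.027), and its 3 probes ran from 0.57 to 1.73. That call held in 4 of the 8 fits that each left out an animal, and was lost without torpid animal 2 (adjusted p = 0.081) or 5 (0.051), without summer animal 2 (0.051) or 3 (0.064), with cyclic loess (0.079) and with the replicate number as a block (0.077).

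Of 8 partners of lipoprotein lipase and lipoprotein receptors, 4 were positive, and their median was -0.03. Apoc2, the apolipoprotein that activates lipoprotein lipase, had the smallest p at 0.86 ± 0.35 (SE; limma adjusted p = 0.37), beside Apoe, a ligand of lipoprotein receptors, at -0.48 and Apoc1 at 0.45. Apoc2 had another probe at -0.17, and the Apoc1 probe was at signal percentile 2.10 of its membrane. The 4 Apoe probes ran from -0.78 to 0.00027, and 1 of them was lower at an unadjusted p under 0.05 (limma). Gpihbp1, which anchors lipoprotein lipase to the capillary wall, was at -0.33 ± 0.46 (SE). Among the other transporters and binding proteins 4 of 6 were positive (median 0.10). Cav1, the main protein of caveolae, had 1.57 ± 0.48 (SE; limma adjusted p = 0.21), with 4.10 ± 0.47 (SD, n = 5) in torpor and 2.53 ± 1.19 (SD, n = 3) in summer. Its other probe gave 0.53. Fabp7, the fatty acid binding protein of brain, had 1.11 on one probe and -0.07 on another. Got2, a mitochondrial aminotransferase also described as a fatty acid binding protein of the plasma membrane, had -0.61, and its 3 probes ran from -0.61 to 0.48.

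Acyl-CoA synthetases, binding proteins and thioesterases were positive for 13 of 17 genes (median 0.31); 3 higher genes and 1 lower gene had an unadjusted p under 0.05. Acot9, a mitochondrial acyl-CoA thioesterase, was at 1.54 ± 0.49 (SD, n = 5) in torpor and 0.17 ± 0.39 (SD, n = 3) in summer without overlap, a difference of 1.37 ± 0.30 (SE; limma adjusted p = 0.095), and its second probe gave 1.04. Acsl6, a synthetase best known in brain, had 1.06 ± 0.29 (SE; limma adjusted p = 0.19), with a second probe at 0.22. Acot13, another thioesterase, had 0.68, with a second probe at -0.09. The 1 lower gene was Acsl4, a synthetase that prefers arachidonate, at -0.68 (adjusted p = 0.33), whose 4 probes ran from -0.68 to 0.35. In the carnitine and malonyl-CoA list 6 of 10 were positive (median 0.21) and 3 were higher at an unadjusted p under 0.05: Slc25a20 (1.13 by its brightest probe), Acacb (0.79), which makes the malonyl-CoA that inhibits Cpt1, and Crot (0.73), the carnitine octanoyltransferase of peroxisomes, whose other probe gave -0.16. Their adjusted p-values by limma were 0.42, 0.25 and 0.34. The 3 Acacb probes ran from 0.16 to 0.79.

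**Figure D4:**
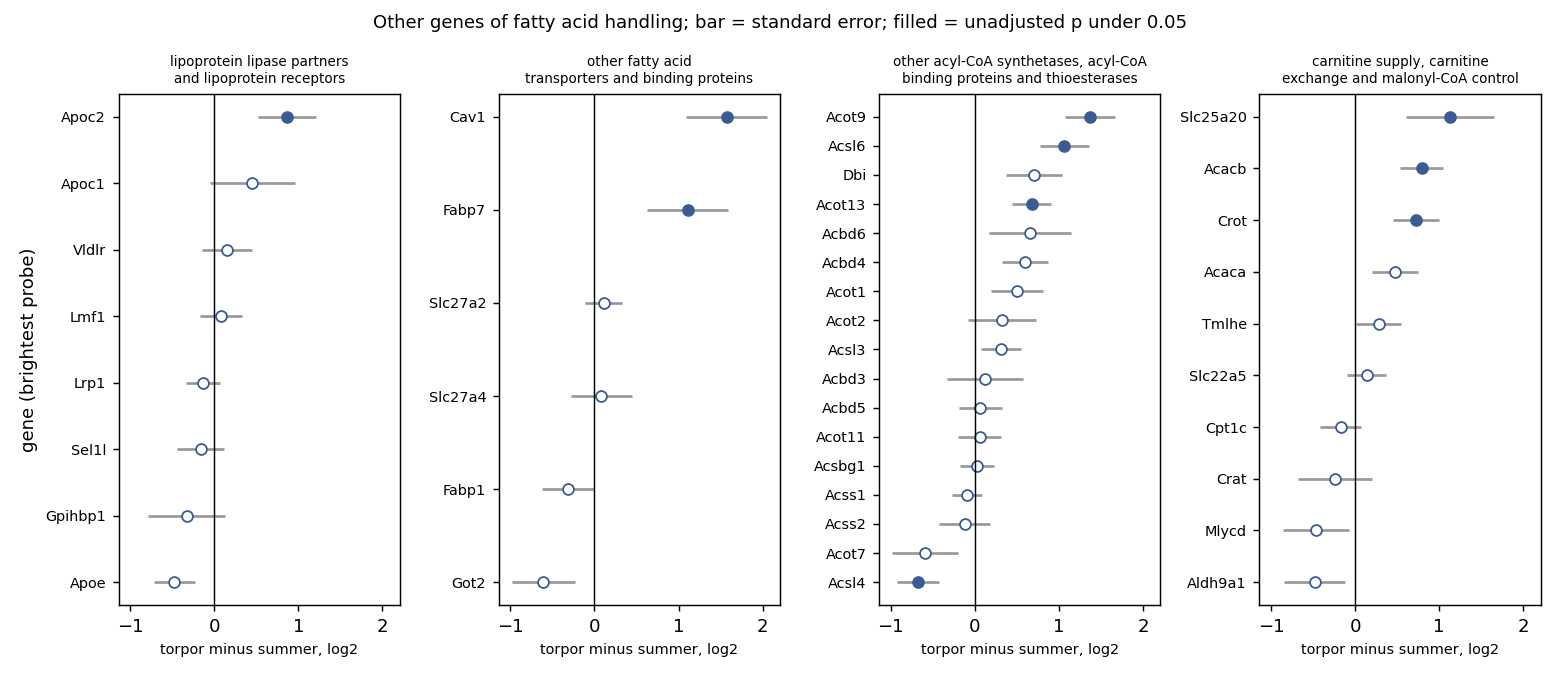
Torpor minus summer difference in log2 (horizontal axes) with its standard error for each measured gene of 4 lists (vertical axes), by its brightest probe; filled points have an unadjusted p under 0.05. Of the 41 genes, 9 filled points lie right of 0 and 1, Acsl4, lies left.

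Markers of the cell types that a piece of brown fat could hold were set beside these values. The brown adipocyte list had 8 of 12 genes measured, 3 positive and 5 negative (median -0.44), with summed intensity from 10.1 to 13.3 in torpor and 12.3 to 19.1 in summer, and Ucp1, the defining uncoupling protein, was not analysed here. Cidea, a lipid droplet protein of brown fat, was at -0.31 (signal percentile 78.6), and its 3 probes ran from -0.37 to 0.0075. Ppargc1a was at -0.76 (signal percentile 86.0), with another probe at -0.42, and Dio2 was at -0.58 (signal percentile 7.23). Esrrg (1.09) and Lhx8 (-0.58) had the smallest p in that list. Of the markers of any adipocyte, 5 of 10 were measured and 4 were negative, among them Lipe (-0.78, at signal percentile 14.8), Cebpa (-0.45) and Pparg (-0.20). Their sums ran from 6.36 to 8.28 in torpor and 6.57 to 10.4 in summer over the 5 measured genes. Adipoq and Fabp4 were not analysed here. No marker of these or the next lists passed over all probes. Since Fabp3 is abundant in muscle, muscle markers were read beside it: 10 of 20 were measured, 2 were positive and 8 negative, and their mean log2 intensity overlapped, from 0.69 to 1.71 in torpor and 0.89 to 1.73 in summer. Their summed intensity, 95.5 to 112 in torpor and 145 to 178 in summer, was carried mostly by Tnnc2, whose log2 mean was 6.33 in torpor and 7.10 in summer (difference -0.77). Des at -1.17 (signal percentile 12.4) and Actn3 at 0.97, with another Actn3 probe at -0.53, had the next smallest p. Endothelial markers, the cells where Cd36 and Gpihbp1 also occur, had 8 of 11 measured and 4 positive, with summed intensity from 8.63 to 13.0 in torpor and 8.11 to 9.15 in summer. Eng was at 0.68, Vwf at -0.99 and Cldn5 at 0.61 (signal percentile 19.5). Leukocyte markers had 10 of 17 measured and 3 positive, with sums from 32.7 to 38.5 in torpor and 25.7 to 45.3 in summer, and Lcp1 at 1.45, Cd79a at -1.01 and Cd3e at -0.89. The 5 Lcp1 probes ran from -0.75 to 1.45, and the 3 Esrrg probes from -0.03 to 1.09. The part of these cell types in the differences of Fabp3, Cd36, Lpl and Fabp5 was not tested.

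Over the 8 animals, the profile of the Fabp3 probe on MA07 was most like those of Ndufb9, a respiratory complex I subunit (Pearson r = 0.948), Adcy3, an adenylyl cyclase (0.946), Plag1, a zinc finger transcription factor (0.945), Idh3a, a subunit of isocitrate dehydrogenase (0.944), and Phip (0.935), among 5816 probes of that membrane. Within the 5 torpid animals alone these values were 0.929, 0.774, 0.805, 0.953 and 0.830. The genes were picked by r over 8 animals that include these 5, so the torpid values are not a separate check. For Lpl probe 6657 the most alike of 5167 MA10 probes were Gadd45g (0.951), Phf1 (0.924), Pkm, a pyruvate kinase (0.923), Prkar2b, a regulatory subunit of protein kinase A (0.917), and Tsr1 (0.915). The aliquots of summer animal 1 differed by 2.16 at this Lpl probe, more than its group difference of 0.38. All of these likenesses are descriptions over animals that share membranes and columns, and the difference between the groups is part of each r over 8 animals.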

How the data were processed

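The authors deposited linear spot intensity values in 44 columns, 24 of torpid and 20 of summer animals; a column has a median of 1 once its empty cells are placed at the bottom. How images were read, whether background was removed and what an empty cell means (3.45% of values) is not given in the sources used here. Signal over background could therefore not be judged. The deposited values were taken to log2, empty cells stayed missing, and aliquots of 1 RNA were averaged on that scale. One limma model per membrane (limma 3.58.1, R 4.3.3; lmFit and eBayes, two-sided, torpor minus summer, at least 2 animals per group) gave the p-values, and Benjamini-Hochberg adjustment ran over all tested probes of the 4 membranes. The code was tested on simulated data. The exact permutation test used scipy 1.17.1. Precision is set by the 8 animals: the median standard error, in log2 units, was 0.29 over all probes and 0.37 over the 17 probes.

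Symbols are those of the platform annotation supplied with the files and may be outdated (1 symbol for 25070 probes, several for 941, none for 12389). The members and lists were chosen with earlier results of these data known. The genes named beside the members passed the adjusted threshold, had one of the 3 smallest p-values in their list, or had one of the 5 profiles most like Fabp3 or Lpl. Gpihbp1, Cidea, Ppargc1a, Ucp1, Acsl4, Lrp1, Acbd3, Vldlr and Acbd5 were named in addition, after their values were seen.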

Additional observations from a re-analysis of the deposited data

How the results depend on the processing

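The counts and the median over the members, the Slc25a20 probe and 14 of the 17 member probes were recomputed under 23 alternatives: 15 of scaling, floor, pseudocount, filters, variance model, aliquots, block and adjustment, and 8 that each left out an animal. Missing values or a filter left 22 for Acsl5 on MA08, 16 for Fabp5 probe 4402 and 15 for Cpt2 probe 1316. Counts over the wider lists, likeness and the Fabp3 probe ratio were not recomputed. The count of member probes past an adjusted p of 0.05 was 0 in all of them except the fit of all columns with the animal as a random block, where it was 1 (the Fabp3 probe on MA07, 2.11, adjusted p = 0.047); over the 23 alternatives that probe ran from 1.53 to 2.49, with adjusted p from 0.047 to 0.40. The count higher at an unadjusted p under 0.05, 3 as reported, ran from 1 (without summer animal 3) to 4 with an animal left out. The count lower, 0 as reported, was 1 with first aliquots only and ran from 0 to 1 with an animal left out. The median difference, 0.28 as reported, ran from 0.25 to 0.44 with an animal left out and, over the other alternatives, from 0.20 with cyclic loess to 0.47 with first aliquots. Counting each clone once, an alternative chosen after seeing the data, gave 0.40.

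Differences of 7 probes changed sign in places, up to the 0.78 of Acsl5 on MA08; the cause was not tested. With cyclic loess, Fabp5 probe 3219 gave -0.0714 and Fabp5 probe 4402 gave 0.0074; probe 4402 also gave 0.0203 with quantile normalization and 0.0091 with the floor. Cpt1a on MA11 gave -0.0204 with centring on the 75th percentile. With second aliquots Lpl probe 6657 gave -0.124, and with first aliquots Cpt2 probe 279 gave -0.0469. With an animal left out, Fabp5 probe 4402 ran, over the 6 such fits it allowed, from -0.835 to 0.50 (without torpid animal 3), Acsl5 on MA08 from -0.0604 (without summer animal 3) to 1.27, Cpt1a on MA08 from -0.0979 (without torpid animal 3) to 0.355, Cpt1a on MA11 from -0.171 (without summer animal 1) to 0.218, and Cpt2 probe 279 from -0.0126 (without summer animal 1) to 0.267.

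The labels number animals in both groups. Over 34505 probes, deviations of same-numbered animals from their group means gave r = 0.02, 0.0073 and 0.0076. Summer animal 1 was most like torpid animal 1, summer animal 2 most like torpid animal 5 and summer animal 3 most like torpid animal 4. With so few animals these values cannot show whether the numbers pair them. With the replicate number as a block, 15 probes could be fitted, 0 passed, 2 were higher at an unadjusted p under 0.05 (the Fabp3 probe on MA07, and Lpl probe 186 at 1.29 with p = 0.015), Acsl5 on MA07 (p = 0.12) and Cpt2 on MA08 (p = 0.076) were not, the median difference was 0.43, and Cpt1a on MA11 gave -0.246.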
